A study of Mus musculus with 16 samples.

Results

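The 12S rRNA, encoded by mt-Rnr1, is the RNA of the small subunit of the mitochondrial ribosome. Like the small-subunit rRNA of bacteria it folds into numbered helices, and the helices near its 3′ end form the decoding site, where the codon meets the tRNA. LRPPRC is a pentatricopeptide repeat protein of mitochondria, which works in a complex with SLIRP and is best known for keeping mitochondrial mRNAs stable and polyadenylated. The footprints described here are the stretches of the 12S rRNA that were protected from RNase in heart mitochondria with or without LRPPRC. They were taken as all deposited footprints on the plus strand of the mitochondrial genome whose largest same-strand overlap, at least 1 nt, was with mt-Rnr1. Of 302 footprints in both lists, 16 met this rule. The gene (ENSMUSG00000064337.1) spans chrM:70-1024 of mm10 on the plus strand and is 955 nt long. It lies between mt-Tf and mt-Tv and has no intron.

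Both genotypes were male C57BL/6N mice aged 12 weeks. Controls were Lrpprc loxP/loxP, and knockouts were Lrpprc loxP/loxP,Cre+, in which the gene is lost in heart and skeletal muscle only. Mitochondria isolated from hearts were mock-digested or treated with 1 of 3 RNases, which gave 4 libraries per genotype. RNase If was used at 0.01 U/µl, while the concentration of RNase T1 was 0.1 U/µl and that of RNase A 10 U/µl. RNase A cuts after pyrimidines, RNase T1 after unpaired G, and RNase If after any unpaired nucleotide. The 4 libraries of a genotype were combined by the authors into 1 track, so there were no replicates, no error between mice could be given, and no test between genotypes was made. How many mice a library holds was not given in the sources used here.

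Every value rests on the C score, the log10 ratio of the highest RNase-treated 5′ coverage over the mock-digested 5′ coverage, with 1 added to both. For each nucleotide the coverage is read at the next nucleotide downstream, where the 5′ end left by a cut lies. At a C score of 0 the highest RNase-treated coverage equals that of mock digestion. Footprints are spans of 8 to 40 nt that are less accessible than the 3 nt on either side. The F score is the central accessibility ratio over that of the left flank plus the same over the right flank. A value of 2 thus means equal accessibility of centre and flanks, and a lower value means stronger protection relative to the flanks. Footprints on the control track that became more accessible in the knockout are called control-called here and numbered W1 to W9 from the 5′ end of the rRNA. Footprints on the knockout track that were less accessible than in the control are called knockout-called and numbered K1 to K7. The direction of change between genotypes was thus fixed by the calling. Each footprint's C and F scores were those of the track on which it was called, so the scores of a W and a K footprint are not values of the same site in both genotypes.

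The sequences on which the description turns are printed below 5′ to 3′, from the RefSeq mouse mitochondrial genome (mm10), plus strand, written as DNA. First come the pairs in which a control-called and a knockout-called footprint overlapped, with the shared nucleotides in capitals.
W2 and K1, chrM:277-288: agttATACctct
W5 and K2, chrM:480-493: gacccAAActggga
K5, chrM:901-909: acacacCGC
In W9, which overlaps K5, the first 3 capitals are the nucleotides shared with K5 and the other 7 are a conserved string of helix 44.
W9, chrM:907-943: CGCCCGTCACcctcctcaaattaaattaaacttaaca
Last come the remaining footprints with the lowest F scores in each list. Capitals in K7 mark the conserved loop of helix 45.
W3, chrM:420-442: gttaggacctaaactcaataacg
W6, chrM:781-817: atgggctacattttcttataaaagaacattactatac
W7, chrM:843-865: aggatttagtagtaaattaagaa
K6, chrM:970-977: gagaggag
K7, chrM:998-1022: catacTGGAAAGtgtgcttggaata

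The control-called list placed 9 footprints on the 12S rRNA and the knockout-called list 7. Of the 9 control-called footprints, 6 were at least 20 nt long. The control-called covered share was highest in the last of 3 equal parts of the rRNA, at 41.2%. Of the 7 knockout-called footprints, 4 were under 10 nt long and 1 reached 20 nt. A control-called footprint was met by 3 of these 7 (42.9%), against 42.7% over all knockout-called footprints. The 9 control-called footprints were 5.06% of the 178 in that list (95% Wilson interval 2.68 to 9.33%), and the 7 knockout-called footprints were 5.65% of 124 (2.76 to 11.2%). These intervals cover the counting of footprints only. The control-called footprints covered 213 nt, 22.3% of the rRNA, against 16% of all plus-strand positions of the mitochondrial genome. The knockout-called footprints covered 85 nt, 8.90% of the rRNA, against 10.8% of all plus-strand positions. Neither list held a footprint antisense to the gene.

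Along the rRNA, the control-called footprints numbered 2, 3 and 4 in the 5′, middle and 3′ of 3 equal parts of the gene, and covered 10.4%, 15.4% and 41.2% of these. The knockout-called footprints numbered 1, 3 and 3, and covered 2.51%, 11.0% and 13.2%. The first 159 nt held no footprint of either list, the first being W1 at nucleotides 160 to 184 of the rRNA. The longest stretch without a control-called footprint was 287 nt, nucleotides 425 to 711, and K3 (563 to 576) and K4 (589 to 601) lay within it. The longest stretch without a knockout-called footprint was 230 nt, nucleotides 602 to 831, which held W6, W7 and W8. Together both lists covered 288 nt, 30.2% of the rRNA, of which 203 nt were control-called only, 75 nt knockout-called only and 10 nt both.

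Among the control-called footprints, lengths ran from 8 to 37 nt with a median of 23 nt, and 6 of 9 were at least 20 nt long. The 3′ group W7, W8 and W9 was nearly continuous: from nucleotide 774 to 874 of the rRNA the 3 footprints covered 94 nt (93.1%). W7 and W8 were 1 nt apart, as were W3 and W4 in the middle part, so that in each case the flank of one footprint reached into the centre of the other. W8 and W9 were 6 nt apart.

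The knockout-called footprints ran from 8 to 25 nt with a median of 9 nt. Of the 7, 4 were under 10 nt and only K7 reached 20 nt. None of them lay within 10 nt of another.

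Among the 9 control-called footprints on the rRNA the lowest F score was that of W6, nucleotides 712 to 748. At 0.517 it ranked 12 of 178 from the lowest in its list. The centre of W6 had an RNase over mock ratio of 1.14 and its flanks a ratio of 4.42 (the harmonic mean of both sides, derived from the C and F scores). The low F score of W6 thus came with the highest flank ratio of any footprint on the rRNA, while its central ratio lay slightly above that of mock digestion. W7, nucleotides 774 to 796, had an F score of 0.593, rank 22, with a central ratio of 0.968 and a flank ratio of 3.27. Its 23 nt hold no C, so that its pyrimidines are all U. W3, nucleotides 351 to 373, had an F score of 0.764, with 0.996 in the centre and 2.61 in the flanks. Centres of W3 and W7 were therefore close to the level of mock digestion.

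The other control-called footprints were shallower. W1 had an F score of 0.821 and W5 of 0.831, W2 reached 0.913, and W8, W9 and W4 had 1.02, 1.06 and 1.17. The last 3 also had the highest central ratios of the 9 control-called footprints on the rRNA, 1.32, 1.35 and 1.35. Over the 9 footprints the F score had a median of 0.831, the central C score a median of 0.0231 and the flank ratio a median of 2.57. In 4 of 9 the central C score was negative, though only just so in W3 (-0.00185) and W7 (-0.0142). The lowest of these were -0.0957 in W2 and -0.156 in W5, which were also the shortest of the 9.

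Among the 7 knockout-called footprints on the rRNA the lowest F score was that of K7, 0.757, rank 11 of 124. K7 spans nucleotides 929 to 953 and ends 2 nt before the 3′ end of the rRNA. Its central ratio was 0.800 and its flank ratio 2.11. K6, nucleotides 901 to 908, followed with an F score of 0.794. Its central C score of -0.431 was the lowest on the rRNA and the sixth lowest of its list, giving a ratio of 0.371. It was also the only footprint on the gene whose flank ratio, as the harmonic mean of both sides, was below 1, at 0.934. The ratio of each side cannot be told from the deposited scores. The 8 nt of K6, gagaggag, hold no pyrimidine at which RNase A could cut, and 62.5% of them are G. K2 had an F score of 0.976, with a central ratio of 0.550 and a flank ratio of 1.13.

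K1, K4, K3 and K5 had F scores of 1.01, 1.05, 1.17 and 1.44. Over the 7 footprints the F score had a median of 1.01 and the central C score a median of -0.108, with 5 of 7 below 0. The flank ratio had a median of 1.49 and ran from 0.934 to 2.26. Knockout-called centres had ratios from 0.371 to 1.32, and control-called centres from 0.699 to 1.35. Control-called flanks ran from 1.68 to 4.42. The ranges overlapped for the flanks as well, since K3 at 2.26 and K7 at 2.11 exceeded W2 at 1.76 and W5 at 1.68.

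**Figure D1:**
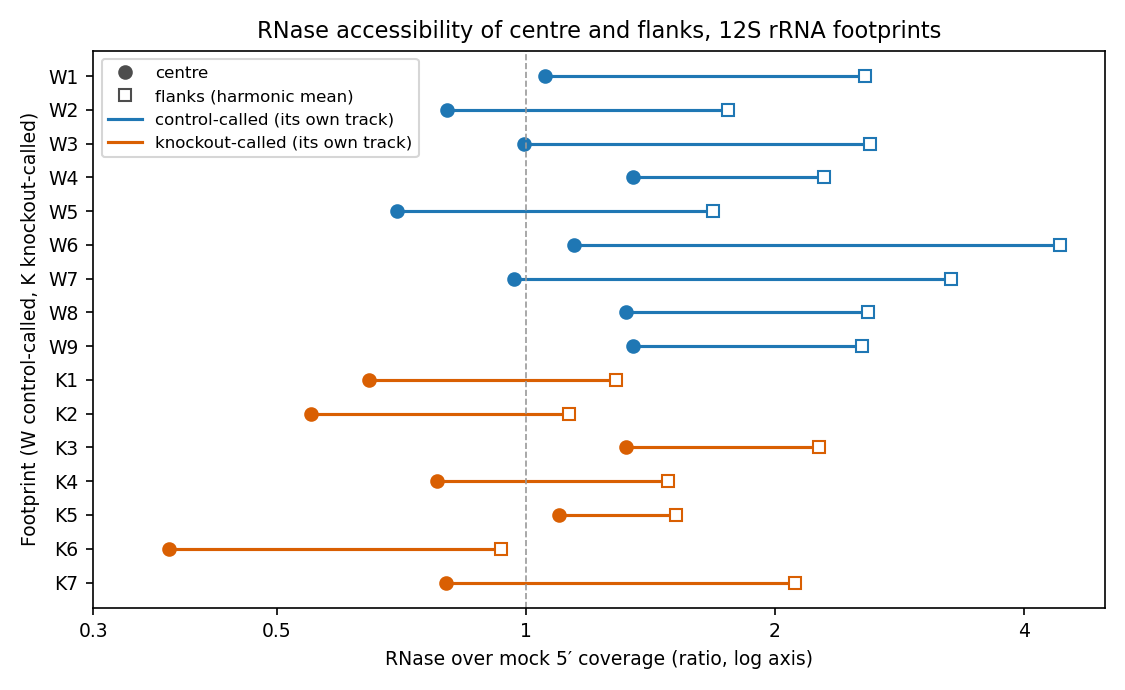
RNase over mock 5′ coverage (log axis) in the centre (filled circles) and flanks (open squares, harmonic mean of both sides) of each 12S rRNA footprint on the track where it was called, with a dashed line at equal coverage. W6 spans the widest range, from 1.14 to 4.42, and K6 lies wholly below 1, from 0.371 to 0.934.

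Overlaps between the lists were 3 or 4 nt long. Of the 9 control-called footprints 3 shared nucleotides with a knockout-called one (33.3%, Wilson interval 12.1 to 64.6%), and so did 3 of the 7 knockout-called footprints (42.9%, 15.8 to 75.0%). Over all footprints these shares were nearly the same, 56 of 178 (31.5%) and 53 of 124 (42.7%). The intervals cover the counting of footprints only, and both rest on the same 3 pairs. K1 started 4 nt downstream of W2 and both were 8 nt long, so that they shared 4 nt, 50% of each. K2 started 5 nt upstream of W5 and they shared 3 nt, 33.3% of W5 and 37.5% of K2. K5 started 6 nt upstream of W9 and they shared 3 nt, 8.11% of W9 and 33.3% of K5. In all 3 pairs, the 3 nt of one flank of the control-called footprint lay wholly inside the knockout-called footprint. This follows from their positions, since each knockout-called footprint ran more than 3 nt past the edge of its control-called partner. How accessible that flank was on either track cannot be told from the deposited scores.

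K5 held flanks of both W8 and W9. W8 ends at nucleotide 831, K5 covers 832 to 840, and W9 starts at 838. The 6 nt between W8 and W9, acacac, are the right flank of W8 followed by the left flank of W9, and they are also the first 6 nt of K5. K5 had the highest F score on the gene, 1.44, with a central ratio of 1.10 and a flank ratio of 1.52, and all 6 nt of its flanks lay inside W8 or W9.

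For orientation on the ribosome, 6 strings from conserved stretches of small-subunit rRNA were searched on both strands of the gene. The strings need not match the bacterial rRNA in every letter. The helix names are from general knowledge of the bacterial rRNA and were not checked on a structure of the mouse rRNA. The strings were TGCCAGC (loop of helix 18), TTAGATA (loop of helix 24), CTCAAAG (strand after helix 27), CCGTCAC (5′ strand of helix 44), AGTCGTA (3′ strand of helix 44) and TGGAAAG (loop of helix 45). Each occurred once in the 12S rRNA and not on the opposite strand. Of all plus-strand windows of 955 nt in the mitochondrial genome, 5.82% hold the helix 24 string, and the same share hold the helix 44 5′ strand string or the helix 45 string, while 11.6% hold any given one of the others. These shares follow from the number of matches on the plus strand of the genome, 1 or 2 per string, with the match in the gene included. No string overlaps another.

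Each list met 1 of the 6 strings, and 2 when the spans were moved by 1 nt towards the 3′ end or the flanks were added. The control-called footprints covered 22.3% of the rRNA and the knockout-called ones 8.90%. Whether the strings were met more often than by random placement was not tested. W9 held the whole of CCGTCAC, chrM:910-916, in the 5′ strand of helix 44, the long helix of the decoding site. K7 held the whole of TGGAAAG, chrM:1003-1009, the loop of the last helix, whose adjacent adenosines are known to be dimethylated by TFB1M. K6 ended 3 nt before AGTCGTA (chrM:981-987), in the 3′ strand of helix 44, which W9 did not reach by 37 nt. K5 ended directly before CCGTCAC, with no nucleotide between, so that with spans moved in this direction or added flanks both lists met this strand of helix 44. W5 ended directly before TTAGATA (chrM:494-500), the helix 24 loop of the platform, with no nucleotide between, and K2 ended 6 nt before it. The helix 18 loop lay 22 nt from W2 and 18 nt from K1, and CTCAAAG lay 43 nt from K3 and 88 nt from W5.

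RNase T1 can cut only at G and RNase A only at pyrimidines, so the composition of the footprints was counted. The 12S rRNA holds 16.1% G and 46.1% pyrimidines. Control-called footprints held 16.9% G and 44.6% pyrimidines, and knockout-called footprints 18.8% G and 47.1% pyrimidines. GC content was 35.8% over the gene, 33.8% in control-called and 45.9% in knockout-called footprints, the last over only 85 nt. Single footprints ranged more widely, from 5.41 to 33.3% G among W1 to W9 and from no G in K1 to 62.5% in K6. The mean predicted probability of being unpaired, from local folding of the sequence without protein, was 0.563 over the gene, 0.545 in control-called and 0.587 in knockout-called footprints, an order that turned with a shorter folding window (0.644 and 0.639). The lowest was in K6, 0.153, and the highest in K5, 0.776. Since the C score takes the highest of 3 RNases, which enzyme set a value cannot be read from these lists.

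The 16S rRNA, mt-Rnr2, lies on the same primary transcript and is the nearest comparison. Per kb the 12S rRNA held 9.42 control-called and 7.33 knockout-called footprints, and mt-Rnr2 held 13.9 and 9.48. The covered share was closer, 22.3% against 23.7% for control-called and 8.90% against 10.9% for knockout-called footprints. Control-called footprints were longer on the 12S rRNA, with a median of 23 against 15.5 nt. Median F scores on the control track were 0.831 on the 12S rRNA, 0.710 on mt-Rnr2, 0.827 on mRNAs and 0.762 on tRNAs. On the knockout track they were 1.01, 1.16, 1.36 and 0.618. Low coverage draws centre and flanks towards equal accessibility and can so raise F scores. Depth on these RNAs is unknown, and whether it set the order of the medians was not tested.

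The footprints on the 12S rRNA and on mRNAs were ordered in opposite ways by length. On the 12S rRNA the control-called footprints had the longer median, 23 against 9 nt, whereas on mRNAs the knockout-called ones did, 21 against 14 nt. The order on the 12S rRNA was shared by mt-Rnr2, with 15.5 against 10 nt, and by all footprints, with 16 against 14 nt, while tRNAs had 16 against 18 nt. The share of centres with a C score below 0, however slightly, also differed between these RNAs. With 1 added to both coverages, low coverage draws a C score towards 0, and depth is unknown. Some knockout-called mRNA centres, such as chrM:5494-5512 and chrM:6417-6428 in mt-Co1, were at exactly 0. The paper reports that mRNAs other than mt-Nd6 were less stable without LRPPRC. Whether coverage rather than protection set the shares that follow was not tested. Of the knockout-called footprints, 5 of 7 on the 12S rRNA and 6 of 15 on mt-Rnr2 had a C score below 0, against 3 of 65 on mRNAs (4.62%) and 10 of 12 on tRNAs. Of the control-called footprints, 4 of 9 on the 12S rRNA and 7 of 22 on mt-Rnr2 were below 0, against 77 of 107 on mRNAs (72.0%) and 9 of 15 on tRNAs. Over all footprints 61.8% of control-called and 23.4% of knockout-called centres were below 0. The share of control-called footprints that met the other list was 33.3% on the 12S rRNA, 31.8% on mt-Rnr2 and 30.8% on mRNAs. These values describe 1 track per genotype, and differences between RNAs were not tested.

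**Figure D2:**
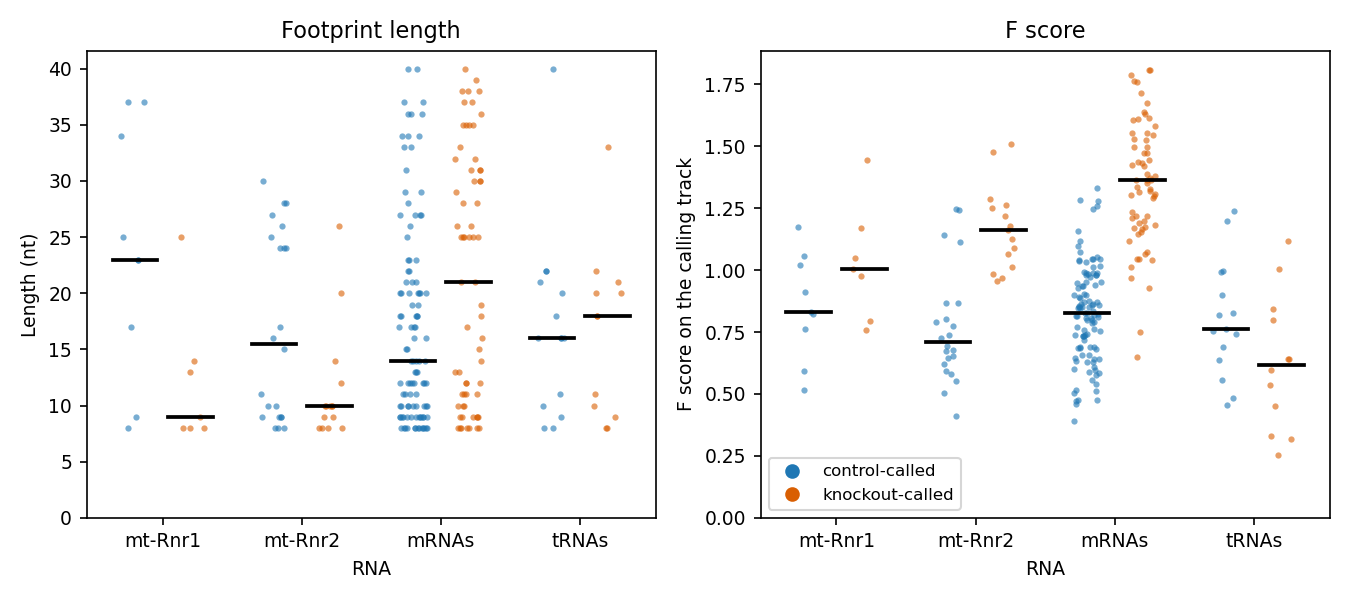
Length in nt (left) and F score on the calling track (right) of each control-called (blue) and knockout-called (orange) footprint on mt-Rnr1, mt-Rnr2, mRNAs and tRNAs, with black bars at the medians. On mt-Rnr1 the median length falls from 23 nt in the control-called to 9 nt in the knockout-called list, while on mRNAs it is 14 and 21 nt.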

How the data were processed

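RNase footprinting of heart mitochondria was taken from 8 libraries of Lrpprc control and knockout mice, and 8 libraries of Slirp mice were not analysed here. Technical replicates were pooled by the authors, who then trimmed adapters (cutadapt 1.10, per the submitters' processing notes), aligned with Bowtie2 to mm10, recovered reads that also matched nuclear mitochondrial insertions, kept proper pairs with templates of 15 to 35 nt, removed nuclear tRNA and Illumina contaminants, and normalized strand-specific 5′ coverage to library size. The maximum over RNases can raise C scores where any 1 library is noisy. Shuffling of C scores gave the FDR, and footprints at 5% were called. The values deposited by the authors were the F score, central C score and length of each footprint. They also deposited each footprint's log2 fold change in F score between the genotypes, which was not used. The lists hold no read counts, so depth is unknown.

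Footprints were assigned with the GENCODE annotation of mm10, whose mitochondrial genome (16299 nt) is that of RefSeq. Central ratios were 10 to the power of the C score and flank ratios 2 times the central ratio over the F score. Pairing was predicted with RNAplfold (ViennaRNA 2.7.2, window 150 nt, span 100 nt). Footprints of 1 rRNA share their track and are not replicates, so no test was made. Described in full were the 3 footprints with the lowest F score in each list and any that met the other list or a conserved string. The footprints and lists were chosen with earlier results of these data known. Alternatives were other rules for assignment, length, merging, span, overlap and folding window. Interval functions were tested on simulated data. Scripts ran in Python 3.11.15 (SciPy 1.17.1, NumPy 2.4.6), with plots by Matplotlib 3.10.9.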

Additional observations from a re-analysis of the deposited data

How the results depend on the processing

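Of 44 alternative values for 19 results, 34 stayed within 1.5 times the count, within the Wilson interval of the share or within 1 SD of the median, and 10 moved further. Adding the 3-nt flanks raised the covered share to 26.9% for control-called and 13.2% for knockout-called footprints. Leaving out footprints under 10 nt left 3 knockout-called footprints, which covered 5.45%. The conserved strings met rose from 1 to 2 in both lists when spans were moved by 1 nt towards the 3′ end (the opposite move was not run), and also to 2 in both when flanks were added. Requiring an overlap of 50% of the shorter footprint left 1 of 3 control-called footprints meeting the other list. With a folding window of 80 nt, the mean unpaired probability in control-called footprints was 0.644, against 0.639 in knockout-called footprints and 0.634 over the gene, so that the order of the lists turned.

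No paired analysis was possible because the libraries of a genotype were combined into 1 track. Leaving out single libraries was not run for the same reason. With unknown depth and 1 track per genotype, none of these values carries an error between mice.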

Other observations

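No footprint lay within 10 nt outside either end of mt-Rnr1. Before it, mt-Tf held a control-called footprint at chrM:12-19 with an F score of 1.24 and a knockout-called one at chrM:25-46, 23 nt from the gene, with an F score of 0.252 and a central C score of -0.467. After it, mt-Tv held control-called footprints at chrM:1059-1080 (F score 0.740) and chrM:1082-1090 (0.829), the nearer of which began after a gap of 34 nt from the end of the gene.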
